A study of Mus musculus with 6 samples.

Results

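Hedgehog signal reception was examined through 9 genes: the receptors Ptch1 and Smo, the co-receptors Boc and Cdon, the ligand trap Hhip, the transcription factors Gli1, Gli2 and Gli3, and their binding partner Sufu. They were chosen by symbol and are 9 of 30916 genes quantified, each found once in GENCODE M21. RNA-seq libraries came from oligodendrocyte precursor cells (OPCs), the dividing glia that give rise to myelinating oligodendrocytes, of C57BL/6 pups at postnatal day 0.5. A2B5+ cells were taken from spinal cord with magnetic beads and cultured for 16 h on poly-lysine and laminin. The medium of both genotypes held forskolin at 5 µM and the growth factors PDGF and CNTF at 10 ng/mL each. The 6 libraries are 3 labelled Gde3 KO and 3 labelled Gde3 WT. Gdpd2 is the gene of GDE3, which cleaves the lipid anchor of certain surface proteins. The labels give no allele, no deleted exons and no sex, and do not say whether libraries came from separate litters, so a p-value here reflects library-to-library spread that can include technical spread.

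Without a hedgehog ligand, Ptch1 keeps Smo inactive, and protein kinase A with Sufu holds the Gli proteins in an inactive or repressor form at the primary cilium. Ligand bound by Ptch1 with Boc, Cdon or Gas1 frees Smo, and active Gli2 and Gli3 then turn on target genes, of which Gli1, Ptch1 and Hhip are the classical ones. In the ventral spinal cord this pathway patterns the progenitor domain from which the first OPCs arise. Forskolin, present in every culture here, activates adenylyl cyclase and so protein kinase A.

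Each library was deposited as its own transcript assembly. A gene's level here is the FPKM (fragments per kilobase of transcript, scaled to the mapped fragments of the library) of assembled transcripts averaged over the gene's exonic bases. The KO label was checked on Gdpd2: its exons 9 and 10 were assembled over 0% in the 3 KO libraries, while in WT exon 9 was assembled over 100% in 3 of 3 and exon 10 over 21.9%, 100% and 100%. The labels do not name these exons, and no other exon of Gdpd2 was examined in this check. Pieces of any length counted for the exons, and only those of 300 nt or more for the levels. Averaged over Gdpd2 the levels overlapped, at 0.667, 1.497 and 1.78 FPKM in KO and 0, 2.79 and 2.85 in WT (exact permutation p = 0.6). WT replicate 1 held 36.8% of its transcripts in pieces under 300 nt, against 2.16% to 6.61% in the others, and its depth relative to the deepest library was 0.760. The OPC markers were present in all libraries, with a summed level of 10 genes of 1184 to 1458 FPKM in KO and 1067 to 1571 in WT. The replicate 1 libraries of both genotypes carry the middle number 3 in their library identifiers and the other 4 libraries the number 4; the labels do not say what it stands for. Astrocyte markers summed to 214 and 164 FPKM in the replicate 1 libraries of KO and WT and to 422 to 706 in the other 4. Microglia markers summed to 92.4 to 173 FPKM in KO and 51.7 to 72.5 in WT.

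Several of these genes were assembled in alternative forms, and the sequences that tell the forms apart are given first. Each joins the last 15 bases of one exon, in lower case, to the first 15 of the next, in capitals, read 5′ to 3′ from the GENCODE M21 transcripts on mm10. For Ptch1 both forms enter the same exon from different first exons, for Gli3 likewise, and for Sufu the forms differ at the acceptor.
Ptch1 proximal first exon: gagcagatttccaagGGGAAGGCTACTGGC
Ptch1 distal first exon: ctgaggccggctatgGGGAAGGCTACTGGC
Gli3 upstream first exon: gagcgggaaagcaaaGGATTCCTTTGAGAA
Gli3 downstream first exon: cagccaaagccgcagGGATTCCTTTGAGAA
Sufu upstream acceptor: gatccgcacctgcaaCAGGAGAGAGTTGAC
Sufu downstream acceptor: gatccgcacctgcaaGAGAGAGTTGACAAA
Smo annotated first exon: tcgtgctctggtccgGCCTCCGGAATGCCC

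Smo and Ptch1 led the set by level and Gli1 was lowest. Over the 6 libraries the means were 20.1 ± 2.21 FPKM for Smo and 18.2 ± 1.97 for Ptch1 (SD, n = 6 libraries of both genotypes). Sufu followed with 7.20 ± 2.03, Boc with 6.84 ± 1.97 and Cdon with 2.32 ± 0.420 FPKM. Gli3 had 1.57 ± 0.342, Gli2 1.15 ± 0.405, Hhip 1.06 ± 0.136 and Gli1 0.315 ± 0.200 FPKM. Among genes with a mean of at least 1 FPKM, Smo lay above 71.7% and Gli2 above 1.94%. The ranges over libraries separated Ptch1 from Sufu, Boc from Cdon, and Hhip from Gli1. The neighbours Smo and Ptch1, Sufu and Boc, Cdon and Gli3, Gli3 and Gli2, and Gli2 and Hhip overlapped. Within each library Gli3 was nevertheless above Gli2 in 6 of 6, by 1.05 to 1.87 times, and Boc was above Cdon in 6 of 6, by 2.02 to 3.56 times. This order averages over all exonic bases, and Sufu and Hhip were assembled over part of theirs. Over coding bases Sufu was above Boc in 6 of 6 libraries without overlap, and the mean of Hhip was above those of Gli3 and Gli2. The coding means of Hhip and Cdon were close, at 2.36 and 2.35 FPKM. Hhip was above Cdon in 2 of 6 libraries, and their ranges overlapped.

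**Figure D1:**
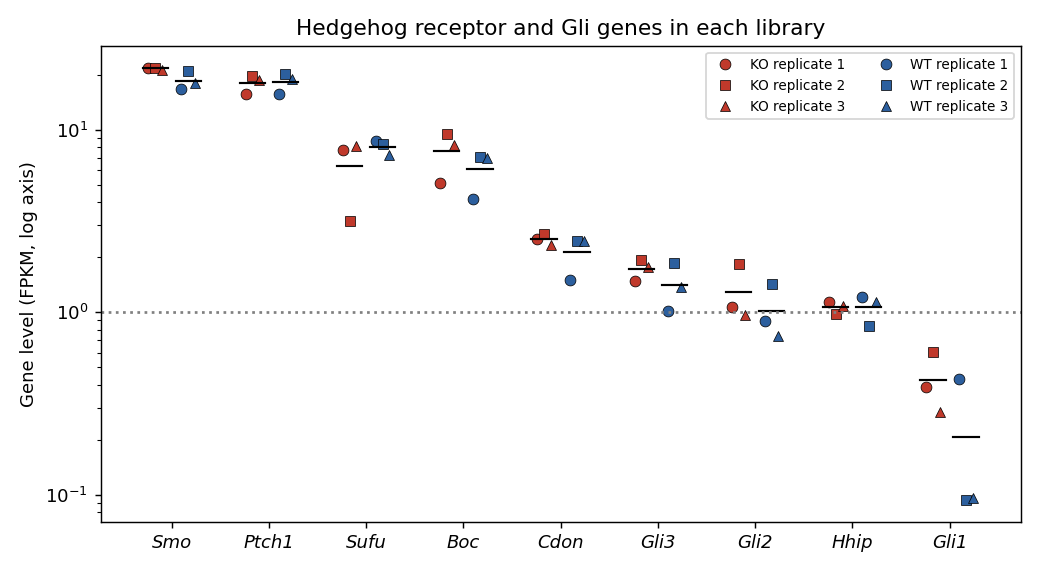
Gene level in FPKM on a log axis for the 9 hedgehog genes, ordered by mean, with 1 symbol per library and a bar at the mean of 3 libraries. Smo and Ptch1 lie between 15.7 and 21.9 FPKM in every library, while Gli1 lies under the dotted line at 1 FPKM in all 6.

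No hedgehog gene differed between KO and WT past the threshold. The 8 that averaged at least 1 FPKM were read from a limma fit over 12038 genes, with Benjamini-Hochberg adjustment over all of them at 0.05. Of the 8, 0 passed (limma), where 0.00831% of all tested genes did, and 0 had an unadjusted limma p under 0.05, where 1.62% did. By value, 6 of the 8 had the higher mean log2 level in KO. Their median log2 difference was 0.18 against -0.0054 for all tested genes. A p that misses the threshold does not show that the genotypes were alike. When FPKM was summed over transcripts in place of the average over bases, 7 of the 8 were lower in KO by value, all but Gli2. Among the 4 libraries with identifier number 4 alone, the 8 differences kept their signs and ran from -0.51 (Sufu) to 0.30 (Boc).

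Smo, the transducer that Ptch1 restrains, was at 21.8, 21.9 and 21.2 FPKM in KO replicates 1 to 3 and at 16.7, 20.9 and 17.9 in WT replicates 1 to 3. It was the only tested hedgehog gene whose genotypes did not overlap, with every KO library above every WT library, as for 2.04% of all tested genes (5.07% did not overlap in either direction). The log2 difference on the log2(FPKM + 1) scale was 0.22 ± 0.11 (SE), with a limma adjusted p of 0.9999. The lowest KO value and the highest WT value, from replicates 3 and 2, were close, and without the replicate 1 libraries the difference was 0.15. The summed microglia markers also lay higher in every KO library than in every WT library. By value 7 of the 7 tested of 8 microglia markers were higher in KO, 0 passed the limma threshold, and 0 were at 0 in every library. Their part in the Smo values was not tested.

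Ptch1, the ligand receptor and itself a target (ENSMUSG00000021466.12, chromosome 13, 63508328 to 63573598, minus strand, mm10), was at 15.8, 19.7 and 18.7 FPKM in KO and 15.7, 20.2 and 19.0 in WT. The genotypes overlapped almost entirely, and the log2 difference was -0.017 ± 0.14 (SE; limma adjusted p = 0.9999). Summed over transcripts the difference was -0.72 (limma adjusted p = 1.00), with 57.6 FPKM in WT replicate 1 against 17.2 to 29.8 in the other libraries. On the average over bases the libraries split by replicate number instead: replicate 1 was the lowest in both genotypes. The summed astrocyte markers were also lowest in the replicate 1 libraries, which share their identifier number. Among these markers S100b was not, at 26.1, 20.5 and 30.1 FPKM in KO and 29.7, 27.6 and 29.6 in WT. The part of astrocytes or of the identifier number in the Ptch1 pattern was not tested. In a bulk library fewer cells of a type and less RNA per cell cannot be told apart.

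Boc, a co-receptor of the immunoglobulin family (ENSMUSG00000022687.12, chromosome 16, 44485049 to 44558897, minus strand), was at 5.09, 9.51 and 8.26 FPKM in KO and 4.16, 7.05 and 6.997 in WT. Replicate 1 was again lowest in both genotypes, and the groups overlapped. Against the WT library of the same number, KO was 1.22, 1.35 and 1.18 times as high. The log2 difference was 0.28 ± 0.28 (SE; limma adjusted p = 0.9999), and a limma fit with a replicate block gave 0.28 ± 0.081, an unadjusted p of 0.0288 and an adjusted p of 0.809. Without the block the difference was 0.066 when WT replicate 1 was left out, 0.51 without KO replicate 1, 0.12 without KO replicate 2 and 0.13 with no length minimum. Cdon, the related co-receptor, was at 2.51, 2.69 and 2.32 FPKM in KO and 1.501, 2.45 and 2.46 in WT (0.18 ± 0.18 SE; limma adjusted p = 0.9999). Its low value in WT replicate 1 goes with 54.6% of its bases assembled there, against 93.8% to 98.1% in the other 5 libraries, and without that library the difference was 0.022.

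Hhip, a membrane protein that binds and sequesters ligand (ENSMUSG00000064325.4, chromosome 8, 79965851 to 80058006, minus strand), was at 1.14, 0.979 and 1.08 FPKM in KO and 1.22, 0.838 and 1.14 in WT. The groups overlapped (0.0066 ± 0.17 SE; limma adjusted p = 0.9999). Only 34.5% to 61.9% of its exonic bases were assembled. Over coding bases alone the mean of the 6 libraries was 2.36 FPKM, with 3.19, 2.60 and 2.24 in KO and 1.55, 2.26 and 2.32 in WT. The log2 difference was then 0.27 (limma adjusted p = 1.00), still with overlap, and Ptch1 was then 5.32 to 11.6 times as high as Hhip in the same library.

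Gli1, the amplifier whose transcription is a common readout of active signalling, stayed under 1 FPKM in every library (ENSMUSG00000025407.7, chromosome 10, 127329882 to 127341974, minus strand). It was at 0.387, 0.604 and 0.283 FPKM in KO and 0.429, 0.0935 and 0.0958 in WT. WT replicate 1 fell among the KO values, and permuting the 3 and 3 libraries in full (exact, two-sided) gave p = 0.3, where 0.1 is the smallest possible. With a mean under 1 FPKM it was not tested with limma. Its assembled extent was 55.7%, 70.3% and 51.3% of exonic bases in KO and 17.5%, 13.3% and 23.1% in WT, without overlap. Of 2810 genes with a mean of 0.1 to under 1 FPKM, 3.74% had a greater extent in every KO library than in every WT library. Of its 12 annotated splice junctions, 6, 6 and 3 were assembled in KO and 1, 0 and 7 in WT, and the junction of the first exon was present in WT replicate 3 alone. This difference in extent was singled out after its values were seen.

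Gli2, the main activator, was at 1.07, 1.83 and 0.967 FPKM in KO and 0.889, 1.42 and 0.738 in WT. Gli3, the main repressor, was at 1.48, 1.92 and 1.76 in KO and 1.02, 1.85 and 1.38 in WT, lowest in replicate 1 of both genotypes. For both genes KO was above the WT library of the same number in 3 of 3 pairs, yet the genotypes overlapped, with log2 differences of 0.18 ± 0.23 and 0.18 ± 0.19 (SE; limma adjusted p = 0.9999 each). WT replicate 1 held 44.6% of Gli2 and 36.9% of Gli3 in assembled pieces of 300 nt or more, against 91.3% or more in every other library. When pieces of any length were counted, its levels rose to 2.76 and 3.06 FPKM, and the log2 differences turned to -0.15 and -0.14. The direction for Gli2 and Gli3 therefore depends on the length minimum in that library. Without WT replicate 1 the Gli3 difference was 0.059, and without KO replicate 2 that of Gli2 was 0.015.

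Sufu, the inhibitor that binds Gli proteins (ENSMUSG00000025231.17, chromosome 19, 46396896 to 46488804, plus strand), was at 7.71, 3.17 and 8.09 FPKM in KO and 8.62, 8.31 and 7.29 in WT. KO replicate 2 stood alone below the other 5 libraries. There 23.7% of the exonic bases were assembled, against 66.9% to 67.4% elsewhere. Over coding bases Sufu was at 10.7, 11.9 and 13.4 FPKM in KO and 15.2, 11.5 and 10.1 in WT, so that KO replicate 2 no longer stood apart. The log2 difference was -0.39 ± 0.31 (SE; limma adjusted p = 0.9999). It was -0.026 without KO replicate 2 and -0.020 over coding bases. Sufu had the greatest SD of log2(FPKM + 1) over the 6 libraries among the tested hedgehog genes on the average over all exonic bases, 0.46, and the genes nearest to its pattern were Dctn5, Paxx, Wipf2, Msl1 and Smurf2. Their root mean squared difference from Sufu in centred log2 values over 6 libraries was 0.0438 to 0.0783. All 5 were lowest in KO replicate 2, which follows from their choice by this pattern. Of these genes 4 were assembled there over 30.2% to 40.9% of their bases, against 77.4% or more in the other libraries. Paxx was the exception, at 100%.

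**Figure D2:**
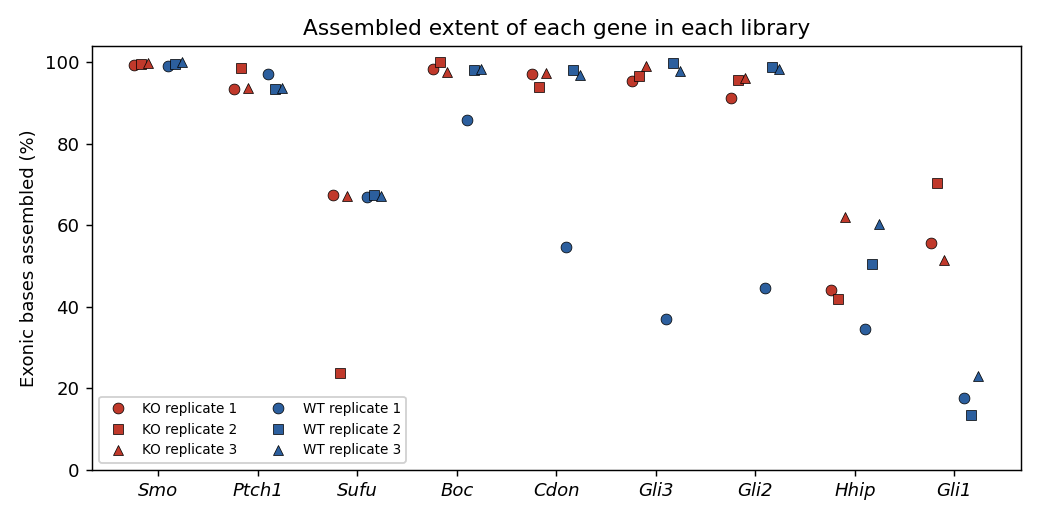
Percentage of each gene's exonic bases covered by assembled transcripts of 300 nt or more, with 1 symbol per library and genes in the order of their level. WT replicate 1 lies apart for Cdon, Gli2 and Gli3 (36.9% to 54.6%) and KO replicate 2 for Sufu (23.7%).

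The alternative forms concern above all where Ptch1 and Smo transcripts began. Ptch1 was assembled from a proximal first exon, joined across an intron at 63563816 to 63565361, in 6 of 6 libraries. A distal first exon, joined across 63563816 to 63573091, was found in 5 of 6. In the annotation the coding sequence starts inside the proximal exon at 63565520, and for the distal form, annotated for nonsense-mediated decay, at 63573094, so that the last 3 bases of the distal exon, atg, begin it. Transcripts with the proximal junction had 9.48, 11.01 and 14.3 FPKM in KO and 7.65, 7.42 and 6.33 in WT. Those with the distal junction had 7.76, 9.43 and 0 FPKM in KO and 11.5, 10.6 and 12.0 in WT. The proximal form thus made up 55.0%, 53.9% and 100% of the pair in KO and 39.9%, 41.2% and 34.5% in WT, without overlap between genotypes. Of 5713 splice sites with 2 partners in these assemblies, 6.23% had shares without overlap. This site was singled out after its values were seen, and the smallest p of an exact permutation test of 3 against 3 is 0.1. The 0 of KO replicate 3 means that the junction was not assembled: a single-exon piece of 847 nt at 0.526 FPKM covered the distal exon's inner end there. In WT replicate 1 each of the 2 junctions lay in a short piece of 3 exons, and neither piece was joined to the longest Ptch1 piece. In the other libraries the assembled forms were long transcripts that held most of the annotated junctions. The share of WT replicate 1 therefore rests on fragments. The total over both forms did not separate the genotypes, as the gene level above shows.

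The proximal Ptch1 exon also ran past the annotated start. Its outer end lay 527 nt upstream of the RefSeq start (63565735) in KO replicate 1 and in WT replicates 2 and 3, 531 nt upstream in KO replicate 2 and 721 nt upstream in KO replicate 3. In WT replicate 1 the spliced piece ended within the annotated exon, and a separate piece without a strand went on from it. The 250 bases before the RefSeq start were covered in full in 6 of 6 libraries, the only such case among the 7 hedgehog genes with a RefSeq promoter entry.

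Smo (ENSMUSG00000001761.7, chromosome 6, 29735503 to 29761365, plus strand) had its annotated first exon in 6 of 6 libraries. In KO replicate 3 and WT replicate 3 a second form began in intron 1, 815 nt before exon 2, with first exons of 110 and 79 nt ending at 29752654. Its junction, 29752655 to 29753469, is in no GENCODE M21 transcript of Smo. It was listed at 13.2 FPKM in KO replicate 3 and 11.3 in WT replicate 3, 56.3% and 56.7% of the 2 forms. The other 4 libraries had 0, which means that the junction was not assembled there. The annotated coding start, at 29736011, lies in exon 1, which this form lacks. The form was thus assembled in 1 library of each genotype. These were the deepest libraries, at 0.988 (KO) and 1 (WT) of the greatest depth. Their median transcript lengths were 1830 and 1816 nt, against 438 to 1496 nt in the others. The part of depth or assembly in this pattern was not tested.

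Gli3 (ENSMUSG00000021318.15, chromosome 13, 15463235 to 15730026, plus strand) was also assembled from 2 first exons. The upstream one was found in KO replicates 1 and 3 and WT replicates 2 and 3, at 1.26, 0.836, 0.942 and 0.473 FPKM. The downstream one was found in 5 libraries, all but WT replicate 1, at 0.467 to 1.86 FPKM. The RefSeq promoter window (GRCm38.p6, 15463473 to 15463772, plus strand) lies between the 2 exons. Of its 250 bases before the RefSeq start 0% was assembled in each of the 6 libraries. It is shown because neither assembled start falls in it, with the 50 bases after the RefSeq start in capitals.
Gli3 window, chr13:15463473-15463772: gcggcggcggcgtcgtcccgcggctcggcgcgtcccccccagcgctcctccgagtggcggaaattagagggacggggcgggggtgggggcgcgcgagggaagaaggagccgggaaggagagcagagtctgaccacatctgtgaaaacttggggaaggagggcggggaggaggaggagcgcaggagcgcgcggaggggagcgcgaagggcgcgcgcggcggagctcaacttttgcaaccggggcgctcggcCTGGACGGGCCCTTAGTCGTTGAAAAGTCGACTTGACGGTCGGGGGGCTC

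The consensus binding site of Gli proteins, GACCACCCA, was searched on both strands of these 300-base windows. It was in 0 of the 7 windows of hedgehog genes (Ptch1, Smo, Gli2, Gli3, Sufu, Hhip and Cdon) and in 0.253% of 32851 windows of all genes. No match says only that these letters are not in the window.

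Sufu differed at an acceptor inside its coding sequence. After the donor before 46450964, the acceptors ending the intron at 46453158 and 46453161 lie 3 nt apart, and the upstream one adds CAG. Counted from any donor, the upstream acceptor made up 29.5%, 44.5% and 71.5% of the pair in KO and 43.8%, 0% and 100% in WT, so the genotypes overlapped. In WT replicate 1 the downstream acceptor, at 10.8 FPKM, was joined to an earlier donor across 46425136 to 46453161, a junction in no GENCODE M21 transcript of Sufu. WT replicates 2 and 3 each held a single form.

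**Figure D3:**
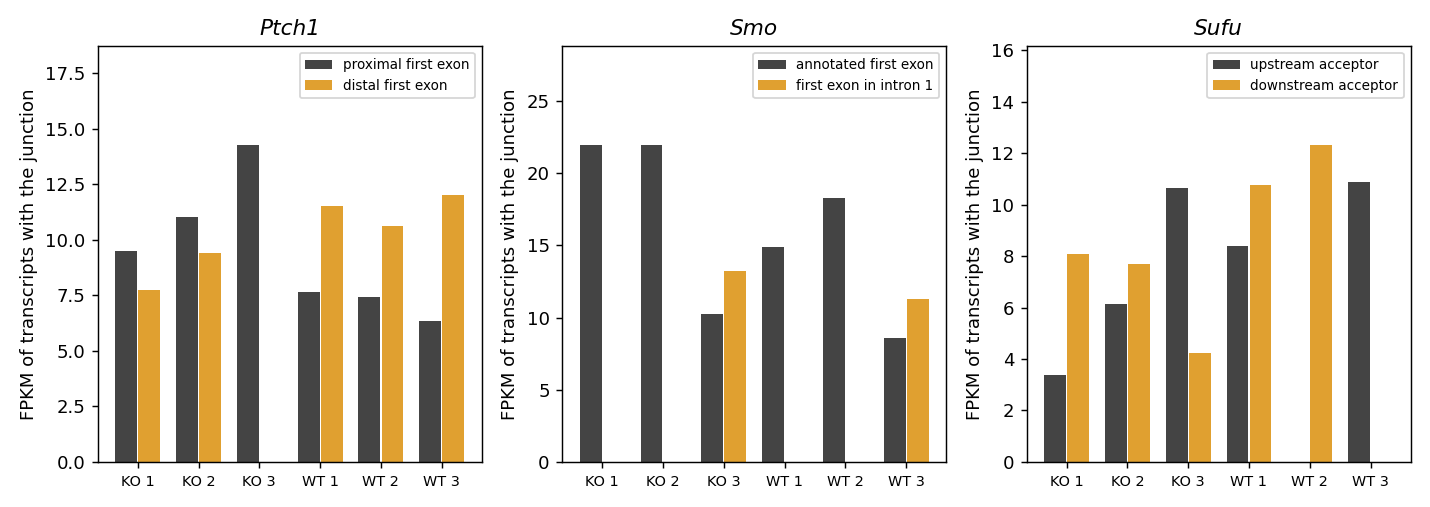
FPKM of the assembled transcripts that hold each of 2 alternative junctions of Ptch1 and Smo, or each of 2 acceptors of Sufu from any donor, as 1 pair of bars per library from 0. For Ptch1 the proximal form is the higher bar in KO and the lower in WT; the form of Smo that starts in intron 1 is present in replicate 3 of both genotypes.

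The rest of the pathway was read from lists of 134 genes in all, of which 118 were tested. Of these, 0 passed the limma threshold in either direction and 1 had an unadjusted p under 0.05, where 1.62% of all genes did. By value 66 were higher and 52 lower in KO.

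Ligand genes were low. Of 9 ligand and ligand-release genes 5 were tested and 0 passed (median log2 difference 0.070). Shh, the ligand of floor plate and notochord, was at 1.47, 1.85 and 0.563 FPKM in KO and 0.436, 1.12 and 0.724 in WT, with overlap (0.36 ± 0.29 SE; limma adjusted p = 0.9999). WT replicate 1 held 14.6% of Shh in pieces of 300 nt or more, and the direction turned when shorter pieces were counted. Scube3, of a family of secreted proteins that help release ligand, was at 1.45, 1.74 and 1.72 FPKM in KO and 1.96, 3.77 and 2.53 in WT, without overlap (-0.48 ± 0.21 SE; limma adjusted p = 0.9999). Of all tested genes, 3.03% had every KO library below every WT library. Ihh did not exceed 0.186 FPKM in any library.

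Among 12 receptors, co-receptors and glypicans 10 were tested, 0 passed, and 8 were higher in KO by value (median 0.079). Gas1, a GPI-anchored co-receptor, was at 9.45, 8.70 and 7.27 FPKM in KO and 11.3, 8.75 and 8.55 in WT (-0.15 ± 0.15 SE; limma adjusted p = 0.9999). On the same per-length scale its mean level was above that of Boc in both genotypes, though their ranges overlapped in KO, and its lowest library was above the highest of Cdon. Lrp2, a large endocytic receptor, averaged 1.17 ± 0.484 FPKM over the KO and 0.853 ± 0.596 over the WT libraries (SD, n = 3 each).

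Of 24 Gli factors and regulators 23 were tested, 0 passed and 12 were lower in KO by value (median -0.029). The gene with an unadjusted limma p under 0.05 was Itch, a ubiquitin ligase that acts on Gli1, at 10.4 ± 0.364 FPKM in KO against 18.1 ± 1.22 for WT (SD, n = 3 each; limma adjusted p = 0.697). Itch was assembled over 52.5% to 53.9% of its bases in KO and 95.9% to 99.2% in WT. Over assembled bases only, its log2 difference went from -0.74 to 0.072. Gsk3b, a kinase that takes part in Gli processing, had 10.1 ± 1.64 against 20.9 ± 11.2 FPKM, with 99.2% and 99.8% assembled in WT replicates 1 and 3 and 33.0% to 33.5% in the other 4 libraries.

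Protein kinase A and receptor signalling at the cilium were covered by 20 genes, of which 20 were tested and 0 passed (median -0.026). Prkar2b, a regulatory subunit of protein kinase A, averaged 11.4 ± 0.434 FPKM over the KO and 13.1 ± 1.97 over the WT libraries, and Evc2, a ciliary partner of Smo, 3.81 ± 0.119 and 3.27 ± 0.584 (SD, n = 3 each). Of 44 cilium genes 43 were tested, 0 passed and 29 were higher in KO by value (median 0.063). Kifap3, an adaptor of the kinesin that builds cilia, had 18.1 ± 1.17 against 21.4 ± 1.89 FPKM. Inpp5e, a ciliary lipid phosphatase, was at 13.04, 13.2 and 11.9 FPKM in KO and 7.66, 0 and 5.11 in WT; WT replicate 2 had no assembled transcript of it (1.87 ± 0.79 SE; limma adjusted p = 0.9999).

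The genes known as hedgehog or Gli targets also showed no difference past the threshold: of 32, 22 were tested, 0 passed, and 9 were higher and 13 lower in KO by value (median -0.032). This list holds Ptch1, Gli1, Hhip, Boc, Cdon and Gas1, given above. In textbook accounts the pathway lowers Boc, Cdon and Gas1 and raises the others. The counts and the median therefore mix genes of opposite response and do not measure pathway activity. Sfrp1, a secreted Wnt antagonist, was at 5.38, 5.20 and 6.18 FPKM in KO and 7.07, 6.26 and 7.07 in WT, every KO library below every WT library (-0.24 ± 0.12 SE; limma adjusted p = 0.9999). Cdc25b, a cell cycle phosphatase, was listed at 0 in KO replicates 1 and 2 and at 15.9 FPKM in KO replicate 3, against 7.69, 13.5 and 15.6 in WT. Ccnd1, the G1 cyclin, which other pathways also induce, was at 260.5 to 332.7 FPKM, while Gli1 stayed under 1 FPKM in every library.

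**Figure D4:**
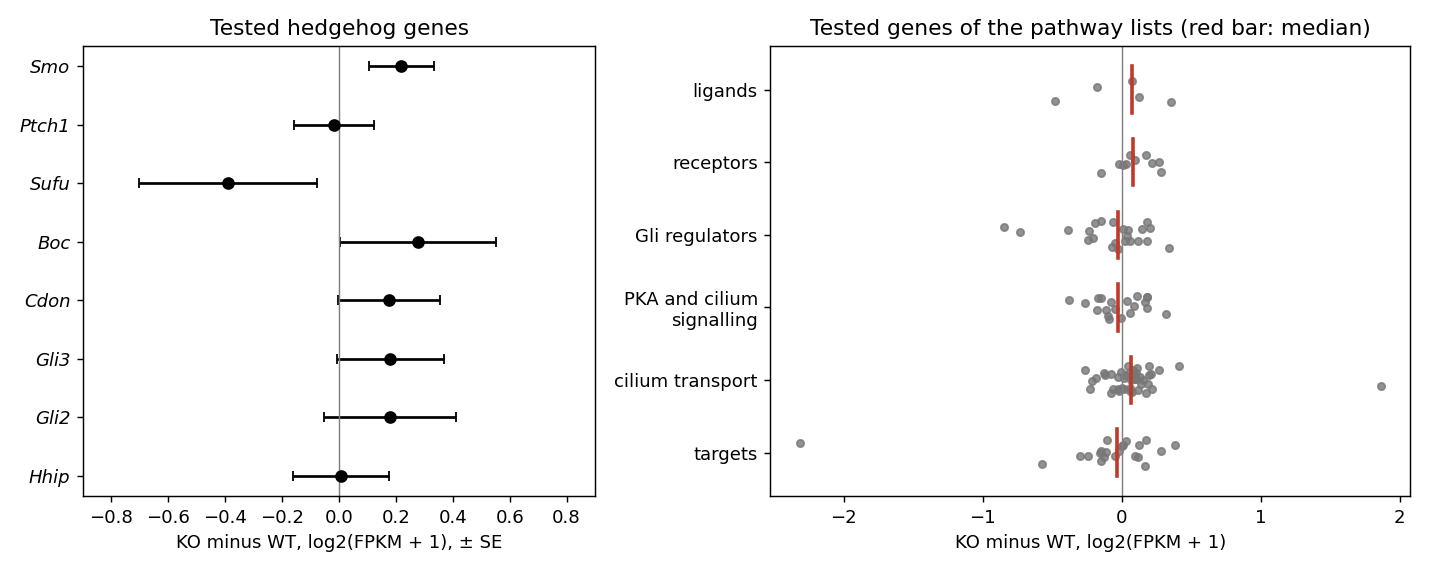
Left, the KO minus WT difference on the log2(FPKM + 1) scale for the 8 tested hedgehog genes, with the limma standard error; right, the same difference for each tested gene of 6 pathway lists, with a red bar at the list median. The differences of the 8 genes lie between -0.39 (Sufu; -0.026 without KO replicate 2) and 0.28 (Boc), and the list medians between -0.032 and 0.079.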

How the data were processed

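Library strandedness and normalization options are not given in the sources used here. The submitters' processing notes name build mm10 and, with no order or role, Cuffdiff 2.2.1, Cufflinks 2.2.1, TopHat2 2.1.1 and FastQC. The deposited files hold 1 Cufflinks assembly per library with an FPKM per transcript; read counts were not used, so depth is known only as a ratio between libraries, 0.760 to 1, from the deposited coverage and FPKM. Counting intervals are therefore not given for the gene levels. Each assembled transcript also came with a confidence interval of its FPKM, which was not carried over to the gene levels.

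Positions were matched to genes of the GENCODE M21 basic set (same build). FPKM of transcripts of 300 nt or more, on the gene's strand or without one, was summed at each exonic base shared with no other gene and averaged, for 30916 coding and long noncoding genes with at least 200 such bases. A listed 0 means that no such transcript of 300 nt or more covered the counted bases. The 12038 genes averaging at least 1 FPKM entered a limma 3.58.1 fit (R 4.3.3) of log2(FPKM + 1) on genotype alone (trend, two-sided, Benjamini-Hochberg), after a check on simulated data. Gli1 was compared with the exact permutation test. The restriction to coding and long noncoding genes was chosen after the files were seen.

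The hedgehog genes and all lists were chosen with earlier results of these data known. Named are the 9 genes, from each list the 2 others with the smallest p, and the 5 genes nearest to Sufu; Ihh, Ccnd1 and the alternative junctions were added after their values were seen. KO and WT libraries of the same number had correlated deviations over the 12038 genes (r = 0.370, 0.200 and 0.295), so the title numbers were taken as pairs in a blocked fit. The main fit ignores this pairing, and so do its SEs and p-values. With the block the SE was smaller for each tested hedgehog gene, as for Ptch1 (0.062, from 0.14) and Gli2 (0.12, from 0.23). Smo then had an unadjusted limma p of 0.074 (adjusted 0.809). Of all tested genes, 511 had an unadjusted limma p under 0.05 with the block and 195 without. Alternatives covered pseudocounts, filters, scaling, the block, weights, gene values and left-out libraries.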

Additional observations from a re-analysis of the deposited data

How the results depend on the processing

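Of the hedgehog genes and of the pathway lists, 0 genes passed under each of the 18 alternatives, with the smallest adjusted limma p of a hedgehog gene at 0.809 (replicate block). No alternative therefore changed a call on them. The count over all genes was 1; it was 0 with a pseudocount of 0.1 or 5, a minimum of 5 FPKM, the replicate block or FPKM summed over transcripts, 2 over assembled bases only, 27 without the replicate pair 1, and 1 to 17 when single libraries were left out (17 without KO replicate 1, 3 without KO replicate 3 or WT replicate 1, 2 without KO replicate 2 or WT replicate 2). The replicate block changed no other call. Before adjustment, 1 hedgehog gene (Boc) fell under 0.05 with it and 1 (Smo) without WT replicate 2. Of 140 alternative values of the 8 tested hedgehog genes, 17 turned direction. Without the length minimum these were Gli2 (-0.15), Gli3 (-0.14) and Hhip (-0.095), and Shh (-1.03) and Lrp2 (-0.12) turned with them. With FPKM summed over transcripts they were Smo (-0.16), Gli3 (-0.32), Hhip (-0.53), Boc (-0.95) and Cdon (-0.10), beside Shh (-0.26), Itch (0.056), Gsk3b (0.15), Prkar2b (0.70) and Evc2 (-0.69), while Ptch1 kept its sign at -0.72; the median of all genes was then -0.092. Over assembled bases only they were Gli2 (-0.0033), Gli3 (-0.10), Sufu (0.027) and Hhip (-0.025), beside Shh (-0.13), Lrp2 (-0.11), Itch (0.072) and Gsk3b (0.14). Over coding bases only Itch (0.027) and Gsk3b (0.13) turned. Leaving out single libraries moved Ptch1 from -0.12 to 0.072 and turned it without KO replicate 1 (0.072), WT replicate 2 (0.055), WT replicate 3 (0.011), moved Hhip from -0.074 to 0.0603 and turned it without KO replicate 1 (-0.018) and WT replicate 2 (-0.074), and moved Lrp2 from -0.037 to 0.39 and turned it without WT replicate 1 (-0.037). A gene counted in several pieces adds up in a sum over transcripts. WT replicate 1 had the most assembled transcripts, 56807 against 32098 to 41319 in the other libraries. In that sum Itch, Gsk3b and Prkar2b nevertheless turned to higher in KO. The cause was not tested for any of these changes.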

Other observations

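An alternative exon of Ptch1, joined across 63534409 to 63537481, was assembled in KO replicate 3 (7.66 FPKM) and WT replicates 2 and 3 (11.8 and 2.70 FPKM). It lay inside a longer transcript in WT replicate 3 and was the first exon of the assembled piece in KO replicate 3 and WT replicate 2. GENCODE holds this junction in a Ptch1 transcript annotated for nonsense-mediated decay. The ratio of Ptch1 to Smo within a library was 0.722, 0.9004 and 0.881 in KO and 0.941, 0.965 and 1.06 in WT, and over coding bases 0.773, 0.914 and 0.876 against 1.09, 1.247 and 1.12. This ratio was singled out after its values were seen.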
